A study of Mus musculus with 22 samples.

Results

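The Bcl2 family decides whether a cell under stress releases cytochrome c from its mitochondria and dies by apoptosis. Its RNA levels are described here across 6 tissue labels of the RIP1-Tag2 (RT2) mouse, a model of pancreatic neuroendocrine tumours. The genes were 10 named members: Bcl2, Bcl2l1, Mcl1, Bax, Bak1, Bad, Bid, Bcl2l11, Bbc3 and Pmaip1. A gene's level was read from the probe set that carried its symbol and no other, and from the brightest one where there were several. By that rule 9 of the 10 were measured, each by 1 probe set, among 19938 genes in all. Bax was not analysed here.

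The family has 3 arms. Bcl2, Bcl2l1 (Bcl-xL) and Mcl1 are anti-apoptotic and hold their killing relatives in check at the mitochondrial membrane. Bax and Bak1 are the effectors that permeabilise that membrane. Bcl2l11 (Bim), Bbc3 (Puma), Pmaip1 (Noxa), Bad and Bid are BH3-only proteins, which carry the stress signal by occupying the anti-apoptotic members or by activating the effectors. Much of this control acts on the proteins: Mcl1 turns over within a short time, Bad is held inactive by phosphorylation and Bid is activated by caspase cleavage. RNA levels show none of those steps. In RT2 mice the insulin promoter drives the SV40 T antigens in pancreatic beta cells, where they inactivate p53 and the retinoblastoma protein. p53 is a known inducer of Bbc3 and Pmaip1.

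Each RNA was hybridised to an Affymetrix whole-transcript array for the mouse, 22 arrays in all, with 1 array for each sample. The labels give 3 samples of normal islets, 3 of hyperplastic islets (overgrown islets), 3 of angiogenic islets (islets with vessel growth), 5 islet tumours, 5 metastasis-like primary tumours ("Met-like primary" in the labels) and 3 liver metastases. All of them, normal islets too, come from RT2 animals, so no group lacks the transgene. The labels give no age, sex or treatment and do not say how a primary tumour was classed as metastasis-like or which samples came from separate animals, so p-values measure the spread between these samples, which may be technical. Samples are named by their titles. Those of islets join the stage to a code that recurs at each stage (NormalI-93, HyperplasticI-93), and those of tumours and metastases have a number with the prefix I, II or III. All 3 metastases carry prefix I, and the sources used here do not say what these codes mean.

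The promoter sequences of the members that varied most in these data are shown, because Foxo and E2f transcription factors are known regulators of BH3-only genes and several of them were measured on the same arrays. RefSeq promoter windows of 250 bases before a transcription start (mouse GRCm38.p6) were searched for 9 of the 10 named members, Bax included, as 15 windows. The promoter of Pmaip1 was not analysed here. The Foxo-type heptamer TGTTTAC was searched on both strands. It occurred in 2 of the 15 windows, 1 of Bcl2l11 and 1 of Bbc3, and in 3.17% of all 32851 windows of that length. The E2f-type octamers TTTGGCGC, TTTCGCGC, TTTCCCGC and TTTGCCGC occurred in 1 of the 15, a window of Bcl2l1, and in 1.86% of all windows. The cAMP response element TGACGTCA occurred in 0 of the 15 and in 1.55% of all, and the GC box GGGCGG, which overlaps none of the other matches shown, in 10 of the 15 and in 32.7% of all. GC content ran from 47.6% to 81.6% in the members' windows, with a median of 52.4% over all windows. The first sequence is the whole window before the upstream start of Bcl2l11 (chr2:128125788-128126037, plus strand), with the Foxo-type match in capitals from 227 bases before the start. The second is a stretch of 30 bases of Bcl2l1 (chr2:152830844-152830873, minus strand), with an E2f-type match in capitals that begins 145 bases before 1 of 3 listed starts. The third is a stretch of 30 bases of Bbc3 (chr7:16310083-16310112, plus strand), with a Foxo-type match in capitals that begins 167 bases before 1 of 3 listed starts. A match of letters is a description and shows no binding.
Bcl2l11 promoter window: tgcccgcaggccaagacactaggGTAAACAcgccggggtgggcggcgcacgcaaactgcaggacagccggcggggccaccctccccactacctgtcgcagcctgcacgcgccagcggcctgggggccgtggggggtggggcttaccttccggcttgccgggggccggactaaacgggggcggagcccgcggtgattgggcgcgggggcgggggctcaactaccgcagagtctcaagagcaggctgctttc
Bcl2l1 promoter stretch: tccgcgtccctGCGCGAAAccttgagattc
Bbc3 promoter stretch: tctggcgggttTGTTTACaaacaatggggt

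Array medians lay between 7.08 and 7.22 on the deposited log2 scale. The labelled tissues were set against markers of the cells they could hold. The mean of 9 beta cell markers was 11.05 to 11.63 in the islets, 10.52 to 10.99 in islet tumours and 9.01 to 9.61 in liver metastases, and was lowest, 8.44 to 9.06, in metastasis-like primaries. The mean of 15 hepatocyte markers was 10.31 to 10.78 in the metastases and 6.64 to 7.44 in both classes of primary tumour. Among the islets it was 7.04 to 7.41 in the normal and hyperplastic samples, 7.19 in AngiogenicI-93, 8.33 in Angiogenic2006 and 9.04 in Angiogenic2007. The mean of 11 lymphocyte markers was 6.09 to 6.58 on every array except the 3 hyperplastic islets (6.80 to 7.91), AngiogenicI-93 (8.45) and Angiogenic2006 (7.91). The mean of 11 acinar markers varied widely, from 8.98 to 12.05 over all arrays. Immediate-early and heat shock genes, which respond to handling of tissue, averaged 9.07 to 9.54 in the 9 islet samples and 7.44 to 8.19 in the 13 tumours and metastases. Xist, an RNA of female cells, ranged from 10.67 to 11.41 over the islet arrays and from 5.33 to 6.46 over those of tumours and metastases. These ranges do not overlap, so sex as read from Xist cannot be told apart from tissue label in any comparison of islets with tumours. The part of sex in those differences was not tested. In bulk samples such as these, fewer cells of a type and less RNA per cell cannot be told apart.

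Of the 9 measured members, 8 varied over the 6 tissue labels (limma's moderated F test, adjusted p below 0.05), against 58.7% of all genes. Bcl2l11 had the widest span, 1.07 log2 between its lowest and highest group mean, a range wider than that of 83.7% of genes (adjusted p = 1.08e-06). Bcl2l1 followed with 0.67 (adjusted p = 6.87e-06), then Bbc3 with 0.64, Bcl2 with 0.62, Mcl1 with 0.58, Pmaip1 with 0.52, Bak1 with 0.43 and Bad with 0.37. Bid, with 0.20, did not pass (adjusted p = 0.672). The members peaked in different groups. The anti-apoptotic Bcl2 and Mcl1, the effector Bak1 and the BH3-only gene Pmaip1 had their highest mean in angiogenic islets. The anti-apoptotic Bcl2l1 and the BH3-only gene Bad had theirs in metastasis-like primaries. The BH3-only genes Bcl2l11 and Bbc3 had theirs in liver metastases and in normal islets.

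**Figure D1:**
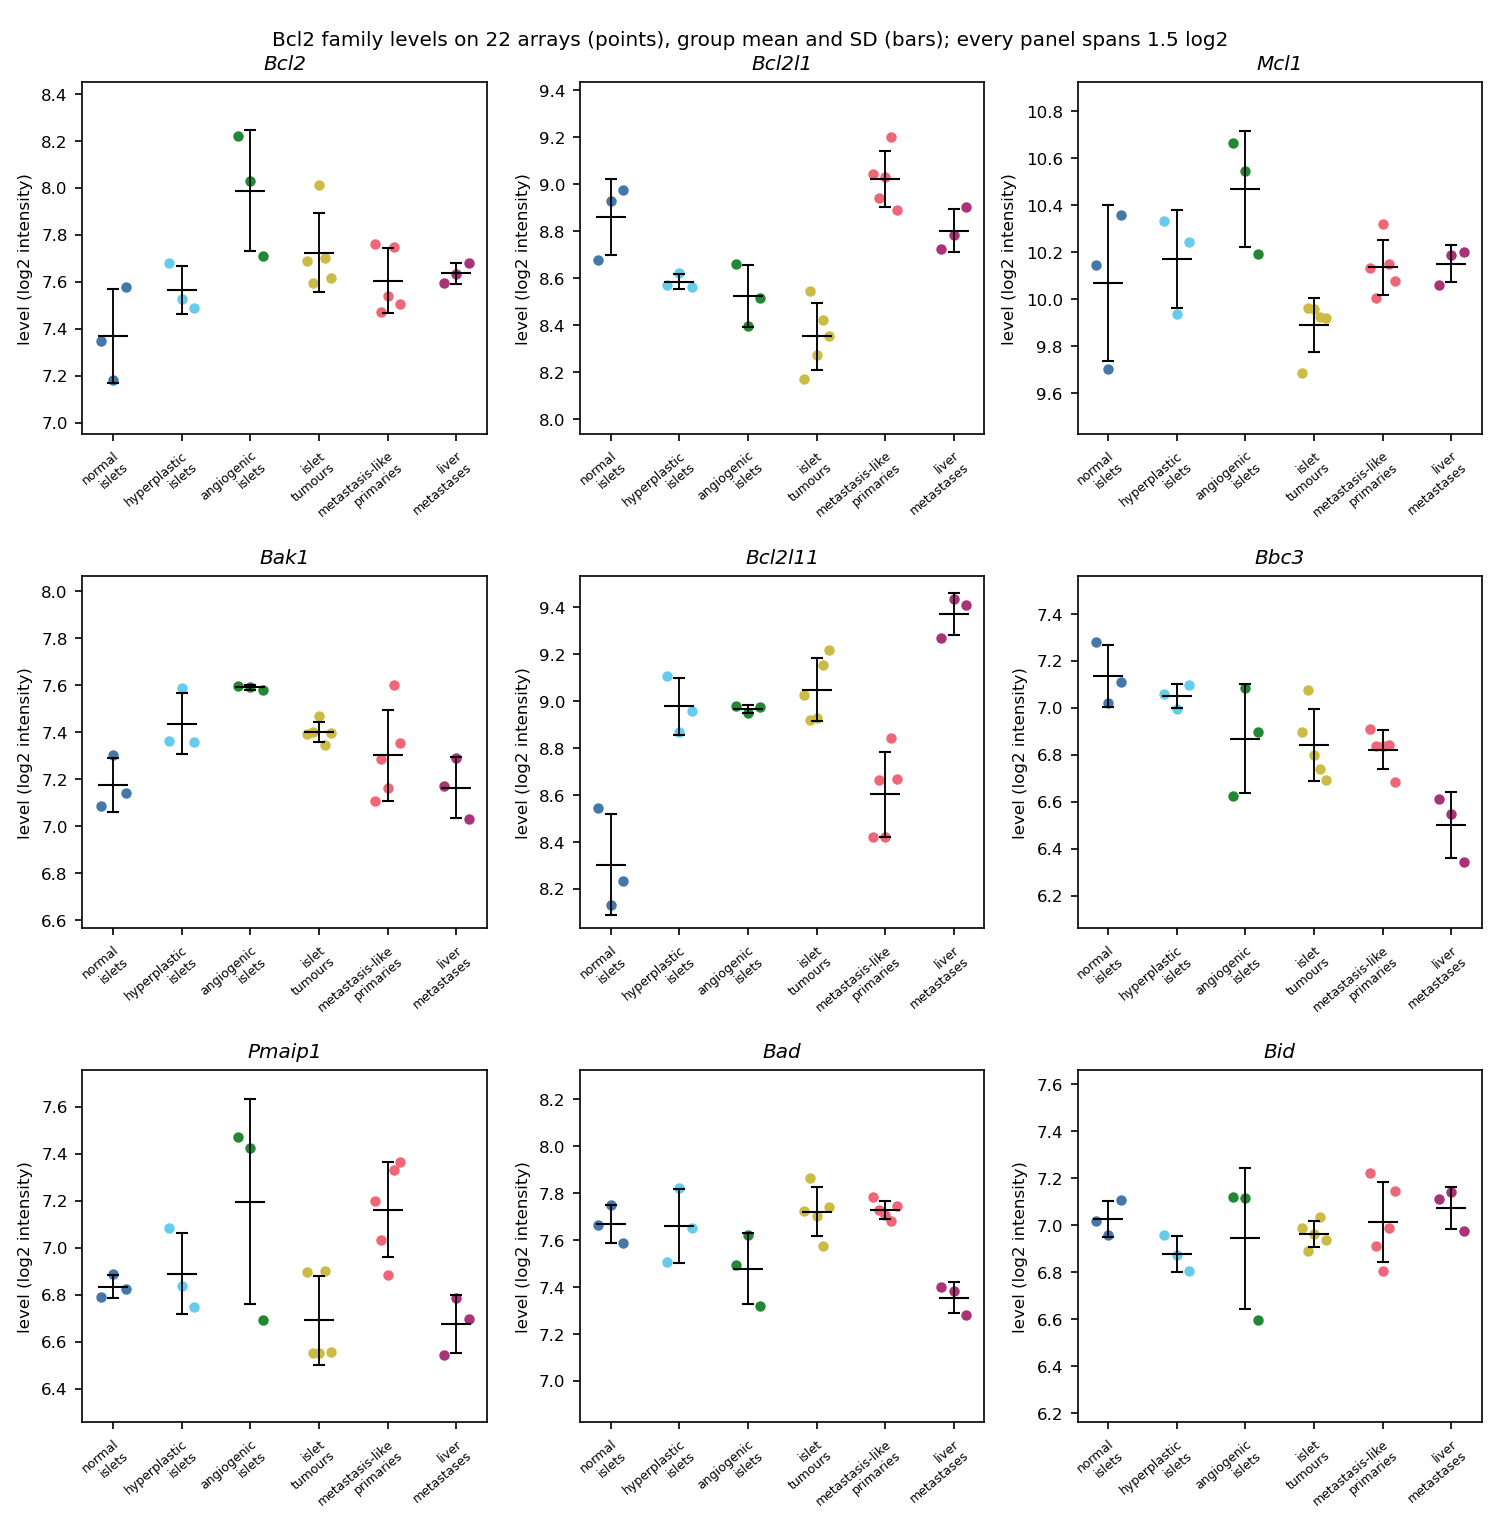
Level of each measured Bcl2 family gene (log2 intensity, vertical axis, 1.5 log2 in every panel) on the 22 arrays by tissue label, with points for arrays and bars for the group mean and SD. Bcl2l11 is lowest in normal islets (8.13 to 8.55) and highest in liver metastases (9.27 to 9.43), while Bcl2l1 is lowest in islet tumours (8.17 to 8.55) and highest in metastasis-like primaries (8.89 to 9.20).

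In each of 7 comparisons between tissue labels, members were counted at an adjusted p below 0.05 over all genes. From normal to hyperplastic islets 1 of 9 members changed (11.1%), Bcl2l11 upward, against 8.64% of all genes in either direction, 4.46% higher and 4.17% lower. From hyperplastic to angiogenic islets 0 of 9 changed, against 2.53% of all genes, 2.29% higher and 0.246% lower. At an unadjusted p below 0.05 from limma, 1 member, Bcl2, passed at that step. From angiogenic islets to islet tumours 2 of 9 fell (22.2%), Mcl1 and Pmaip1, against 9.54% of all genes in either direction, 3.09% higher and 6.45% lower. From islet tumours to metastasis-like primaries Bcl2l1 and Pmaip1 rose and Bcl2l11 fell (3 of 9, 33.3%), against 26.5% of all genes, 12.3% higher and 14.2% lower. From metastasis-like primaries to liver metastases Bcl2l11 rose while Bad, Bbc3 and Pmaip1 fell (4 of 9, 44.4%), against 15.7% of all genes, 7.8% higher and 7.87% lower. In islet tumours against normal islets Bcl2 and Bcl2l11 were higher and Bcl2l1 and Bbc3 lower (4 of 9), against 29% of all genes, 13% higher and 16.1% lower. In liver metastases against islet tumours Bcl2l1 and Bcl2l11 were higher and Bad and Bbc3 lower (4 of 9), against 36.6% of all genes, 17.3% higher and 19.3% lower. The split between higher and lower depended on centring: after median centring of the arrays, the higher share of the called genes was 37.9% in place of 51.7% for hyperplastic against normal islets, 76.6% in place of 90.3% for angiogenic against hyperplastic islets, 51.7% in place of 32.4% for islet tumours against angiogenic islets and 33.9% in place of 44.7% for islet tumours against normal islets. With 9 members, 1 gene is 11.1% of the family, so these shares are coarse. Comparisons that follow each other share a group: a gene that is low in the shared group differs with opposite sign in both.

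**Figure D2:**
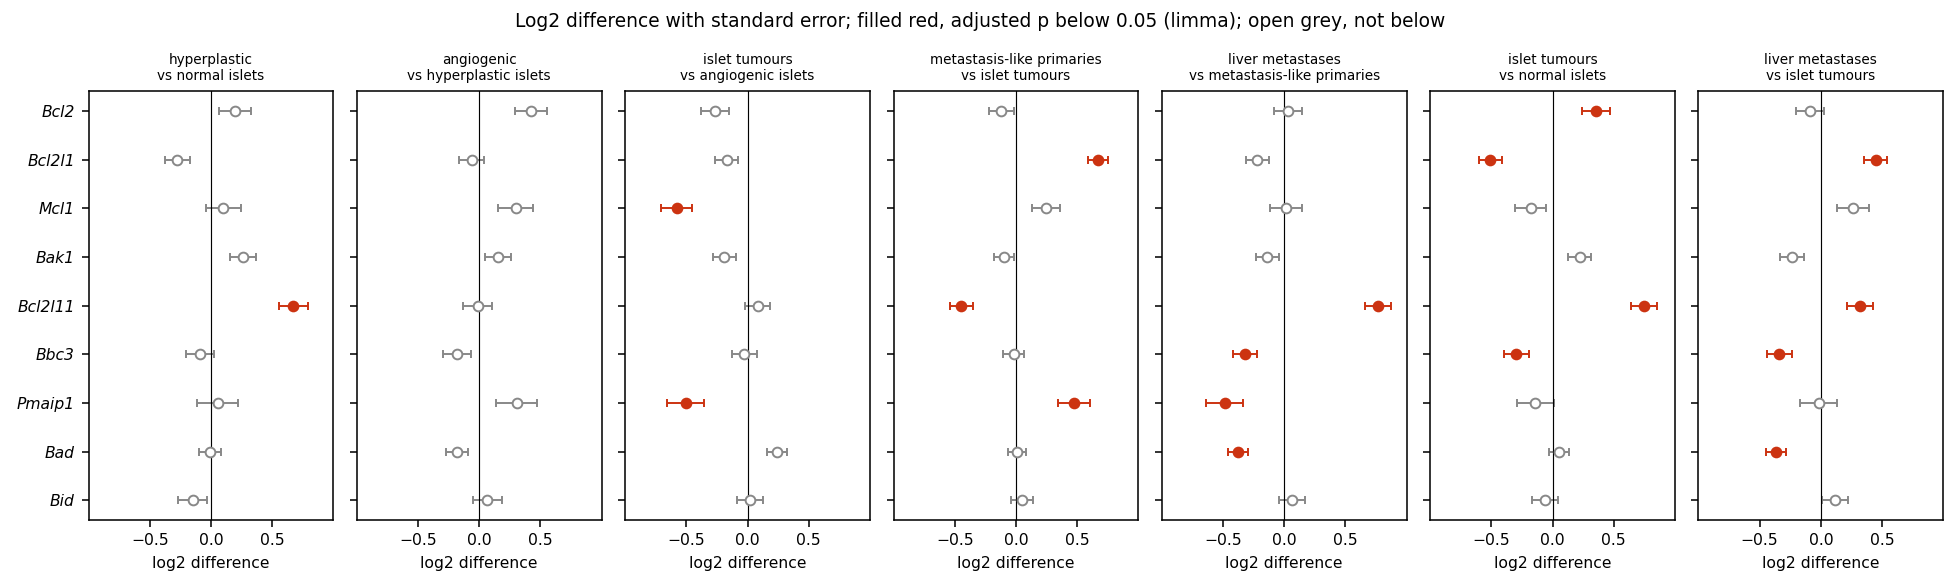
Log2 difference between 2 tissue labels (horizontal axis, first label minus second, with its standard error) for the 9 measured members in 7 comparisons. Filled red points had an adjusted p below 0.05 (limma), 18 of 63, and open grey points did not.

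Bcl2l1 encodes Bcl-xL, the anti-apoptotic member that guards the outer mitochondrial membrane in many epithelial and endocrine cells. Its log2 level was 8.68, 8.93 and 8.97 in normal islets (NormalI-93, Normal2006, Normal2007; the same order of codes holds for all islets), 8.57, 8.62 and 8.56 in hyperplastic islets and 8.66, 8.39 and 8.52 in angiogenic islets. In islet tumours it was 8.17 (I-9811), 8.55 (II-649), 8.27 (II-6415), 8.42 (III-8017) and 8.35 (III-8024). In metastasis-like primaries it was 9.04 (I-9812), 8.94 (II-648), 9.03 (II-6413), 9.20 (III-8016) and 8.89 (III-8023), and in liver metastases 8.72 (I-9820), 8.79 (I-9821) and 8.90 (I-9822). Every normal islet, metastasis-like primary and metastasis lay above every hyperplastic islet, angiogenic islet and islet tumour. The margin was narrow, from 8.661 in AngiogenicI-93 to 8.677 in NormalI-93. This split was read from the values themselves, and the share of all genes with such a split was not counted. In order of the means, metastasis-like primaries (9.02 ± 0.12, SD, n = 5), normal islets (8.86 ± 0.16, n = 3) and metastases (8.80 ± 0.09, n = 3) overlapped with their neighbours. They were followed by hyperplastic islets (8.59 ± 0.03), angiogenic islets (8.52 ± 0.13) and islet tumours (8.35 ± 0.14), which overlapped in turn. Metastases and hyperplastic islets, neighbours in this order, did not overlap.

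Islet tumours had 1.42-fold less Bcl2l1 RNA than normal islets (-0.51 ± 0.09 log2, SE, 95% interval -0.70 to -0.31, adjusted p = 0.000238). Metastasis-like primaries had 1.59-fold more than islet tumours (0.67 ± 0.08, interval 0.50 to 0.84, adjusted p = 1.54e-06). Liver metastases had 1.37-fold more than islet tumours (0.45 ± 0.09, adjusted p = 0.000603). Each of these 3 calls held under every alternative run for it. Between metastases and metastasis-like primaries the difference was -0.22 ± 0.09 (adjusted p = 0.124), with an interval of -0.41 to -0.03. Hyperplastic islets all lay below normal islets, at a step where 28.4% of all genes had no overlap between the groups. That difference of -0.27 ± 0.10 did not pass (adjusted p = 0.117), but did without NormalI-93 (adjusted p = 0.0441).

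Bcl2, the founding anti-apoptotic gene of the family, is abundant in lymphocytes, whose survival depends on it. Its level was 7.35, 7.18 and 7.58 in normal islets, 7.68, 7.53 and 7.49 in hyperplastic islets and 8.22, 8.03 and 7.71 in angiogenic islets. It was 7.69, 7.59, 8.01, 7.70 and 7.62 in islet tumours, 7.76, 7.47, 7.54, 7.75 and 7.51 in metastasis-like primaries and 7.59, 7.63 and 7.68 in metastases, in the order of samples given for Bcl2l1. All angiogenic islets lay above all hyperplastic ones, and all islet tumours above all normal islets, but every pair of neighbours in the order of means overlapped. Between normal islets and islet tumours the margin was narrow, from 7.580 (Normal2007) to 7.595 (II-649-tumor). Of all genes, 27.9% had no overlap between those 2 groups. The rise from normal islets to islet tumours was 1.28-fold (0.35 ± 0.12, adjusted p = 0.0249). It was lost with quantile normalization (adjusted p = 0.0501), with median centring (0.0523), in a fit of the 8 compared arrays alone (0.0624), and without NormalI-93 (0.0713), Normal2006 (0.169) or II-6415-tumor (0.065). From hyperplastic to angiogenic islets, a step at which 22.8% of all genes had no overlap, Bcl2 differed by 0.42 ± 0.13 (adjusted p = 0.103). With array weights the adjusted p was 0.0217, and without Angiogenic2007 it was 0.0149.

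Mcl1 encodes a short-lived anti-apoptotic protein, and its RNA was among the brighter ones on the arrays (brighter than 95.7% of genes on average). The level was 10.14, 9.70 and 10.36 in normal islets, 10.33, 9.94 and 10.24 in hyperplastic islets and 10.67, 10.55 and 10.19 in angiogenic islets. It was 9.68, 9.96, 9.96, 9.92 and 9.92 in islet tumours, 10.13, 10.003, 10.32, 10.15 and 10.08 in metastasis-like primaries and 10.06, 10.19 and 10.20 in metastases. Islet tumours were the low group: each lay below every angiogenic islet, every metastasis-like primary and every metastasis. Normal islets spread over most of the range of the whole series. Mcl1 fell 1.49-fold from angiogenic islets to islet tumours (-0.58 ± 0.13, adjusted p = 0.00666), a step at which 14.9% of all genes had no overlap. That call ended without AngiogenicI-93 (adjusted p = 0.0741) and with the lymphocyte marker mean as a covariate (-0.37 ± 0.16, adjusted p = 0.355). Immediate-early and heat shock genes fell at the same step (14 of 16, median -1.41), and their part in the Mcl1 difference was not tested. The higher levels in metastasis-like primaries (0.25 ± 0.11, adjusted p = 0.115) and metastases (0.26 ± 0.13, adjusted p = 0.124) than in islet tumours did not pass, although the groups did not overlap (17% and 37.3% of all genes). Both passed when only the arrays of the compared groups were fitted (0.0467 and 0.0422).

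Bak1 is the membrane-bound effector of the family, and with Bax missing it was the only effector among the measured members. Its level was 7.08, 7.30 and 7.14 in normal islets, 7.36, 7.59 and 7.36 in hyperplastic islets and 7.60, 7.59 and 7.58 in angiogenic islets. It was 7.39, 7.40, 7.47, 7.35 and 7.40 in islet tumours, 7.11, 7.28, 7.16, 7.60 and 7.36 in metastasis-like primaries and 7.17, 7.29 and 7.03 in metastases. The gene varied over the 6 labels (adjusted p = 0.00806) with its peak in angiogenic islets, 0.43 above metastases. None of the 7 comparisons called it. Those 7 did not set angiogenic islets (7.59 ± 0.01, SD) against normal islets (7.18 ± 0.11) or metastases (7.16 ± 0.13). The nearest were metastases against islet tumours (-0.24 ± 0.09, adjusted p = 0.0554) and islet tumours against normal islets (0.22 ± 0.09, adjusted p = 0.0812), each without overlap between the groups (37.3% and 27.9% of all genes). The first passed without dim genes (0.044), with the compared arrays alone (0.0457) and without I-9821-Met (0.0404). The second passed with array weights (0.0301), as did the difference of hyperplastic from normal islets (0.26 ± 0.11, adjusted p = 0.145, and 0.0385 with array weights).

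Bcl2l11 encodes Bim, a BH3-only activator that binds all the anti-apoptotic members and is a well-known Foxo target. The level was 8.55, 8.13 and 8.23 in normal islets, 9.11, 8.87 and 8.96 in hyperplastic islets and 8.98, 8.95 and 8.98 in angiogenic islets. It was 9.03, 8.92, 8.93, 9.15 and 9.22 in islet tumours, 8.42, 8.66, 8.42, 8.84 and 8.67 in metastasis-like primaries and 9.27, 9.43 and 9.41 in metastases. The groups formed 3 levels with narrow margins, from 8.843 (III-8016-MLP) to 8.868 (Hyperplastic2006) and from 9.220 (III-8024-tumor) to 9.269 (I-9820-Met). Metastases (9.37 ± 0.09, SD, n = 3) stood above all others. Islet tumours (9.05 ± 0.13, n = 5), hyperplastic islets (8.98 ± 0.12) and angiogenic islets (8.97 ± 0.02) overlapped in the middle, and metastasis-like primaries (8.60 ± 0.18) and normal islets (8.30 ± 0.22) overlapped at the bottom. These levels were read from the values themselves. Of all genes, 28.4% had no overlap between hyperplastic and normal islets and 17% between metastasis-like primaries and islet tumours. The share was 23.2% between metastases and metastasis-like primaries and 37.3% between metastases and islet tumours.

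Bcl2l11 rose 1.60-fold from normal to hyperplastic islets (0.67 ± 0.12, adjusted p = 0.000575), the step at which all 27 measured cell cycle genes also rose (median 1.91). The mean of those genes was 8.12 in NormalI-93, 7.16 in Normal2006, 6.79 in Normal2007 and 9.19 to 9.26 in hyperplastic islets. Its part in the members' differences was not tested. Angiogenic islets differed from hyperplastic islets by -0.01 log2, with a 95% interval of -0.26 to 0.24. Bcl2l11 was 1.68-fold higher in islet tumours than in normal islets (0.75 ± 0.11, adjusted p = 1.3e-05). Metastasis-like primaries had 1.36-fold less than islet tumours (-0.45 ± 0.09, adjusted p = 0.000779), and liver metastases 1.70-fold more than metastasis-like primaries (0.77 ± 0.11, adjusted p = 2.61e-05). Those 4 calls held under every alternative run. The excess of metastases over islet tumours was smaller (0.32 ± 0.11, adjusted p = 0.0211), and the call ended without I-9821-Met (0.0871) or I-9822-Met (0.0737). All 15 hepatocyte markers were higher in metastases than in islet tumours (median 4.06), and 14 of 15 than in metastasis-like primaries (median 3.39). What liver RNA contributed to the Bcl2l11 level of the metastases was not tested.

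Bcl2l1 and Bcl2l11, a guardian and its binding partner, separated the primary tumour classes in opposite directions. Metastasis-like primaries combined high Bcl2l1 with low Bcl2l11, as normal islets did. Islet tumours, hyperplastic islets and angiogenic islets combined low Bcl2l1 with high Bcl2l11. Liver metastases had both genes high. No islet tumour reached the Bcl2l1 level of any metastasis-like primary (8.55 at most against 8.89 at least), and none had as little Bcl2l11 (8.92 at least against 8.84 at most). Of all genes, 17% had no overlap between these classes.

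**Figure D3:**
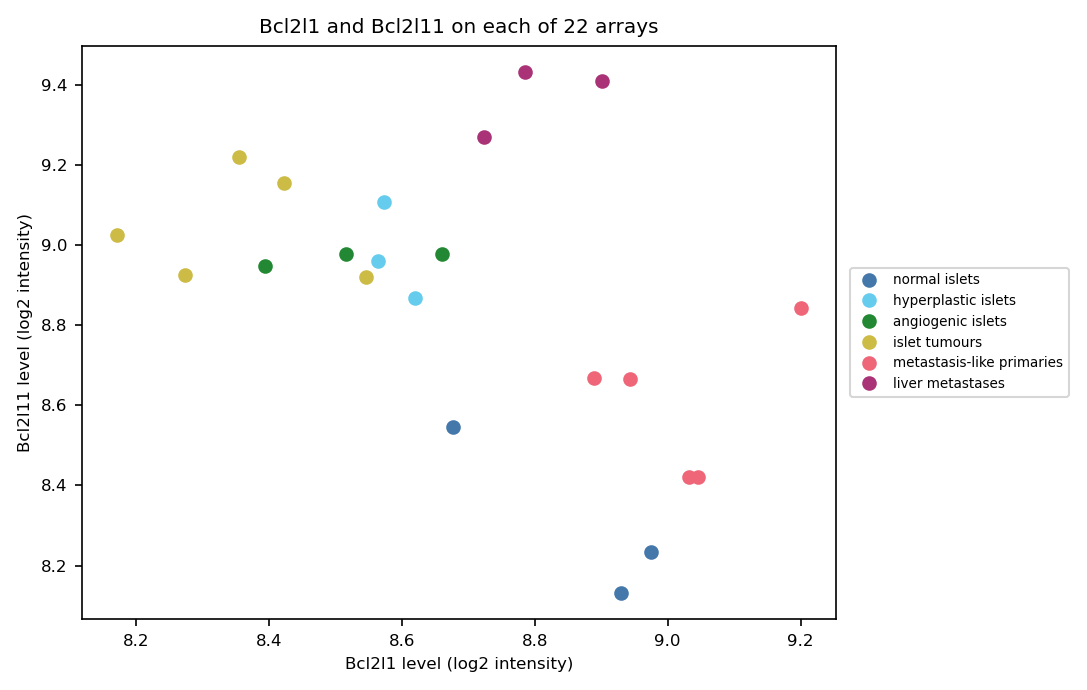
Bcl2l1 level (horizontal axis, log2 intensity) against Bcl2l11 level (vertical axis, log2 intensity) on each of the 22 arrays, coloured by tissue label. Normal islets and metastasis-like primaries lie at the lower right, islet tumours with hyperplastic and angiogenic islets at the upper left, and the 3 liver metastases (Bcl2l1 8.72 to 8.90, Bcl2l11 9.27 to 9.43) at the upper right.

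Bbc3 encodes Puma, a BH3-only protein induced by p53 and by Foxo factors. The level was 7.28, 7.02 and 7.11 in normal islets, 7.06, 6.99 and 7.10 in hyperplastic islets and 6.63, 7.08 and 6.90 in angiogenic islets. It was 6.90, 7.08, 6.80, 6.74 and 6.69 in islet tumours, 6.91, 6.84, 6.84, 6.84 and 6.68 in metastasis-like primaries and 6.61, 6.55 and 6.34 in metastases. The order of the means ran from normal islets to metastases in the order of the labels, but only the last step had groups that did not overlap. On average Bbc3 was brighter than 37.7% of genes, Pmaip1 than 38.9% and Bid than 40.4%, the dimmest of the measured members. Bbc3 fell by 0.30 ± 0.10 log2 between normal islets and islet tumours (adjusted p = 0.0324). Liver metastases had 1.25-fold less than metastasis-like primaries (-0.32 ± 0.10, adjusted p = 0.035) and 1.27-fold less than islet tumours (-0.34 ± 0.10, adjusted p = 0.0113).

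These 3 falls of Bbc3 depended on single arrays. The first was lost with the compared arrays alone (adjusted p = 0.0777) and without NormalI-93 (0.171), Normal2007 (0.0633), II-6415-tumor (0.0557), III-8017-tumor (0.0633) or III-8024-tumor (0.0769). For the second, each of 6 left-out arrays ended the call: I-9812-MLP (0.0746), II-648-MLP (0.0635), II-6413-MLP (0.0619), III-8016-MLP (0.0501), I-9821-Met (0.0755) and I-9822-Met (0.212). Median centring (0.0555) ended it too. The third was lost without I-9822-Met (-0.26, adjusted p = 0.091), the metastasis with the lowest level.

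Pmaip1 encodes Noxa, a BH3-only protein that binds Mcl1 and marks it for breakdown. Its level was 6.79, 6.89 and 6.82 in normal islets, 7.08, 6.84 and 6.75 in hyperplastic islets and 7.47, 7.42 and 6.69 in angiogenic islets. It was 6.90, 6.55, 6.55, 6.90 and 6.56 in islet tumours, 7.20, 7.03, 6.88, 7.33 and 7.37 in metastasis-like primaries and 6.54, 6.79 and 6.70 in metastases. AngiogenicI-93 and Angiogenic2006 were the highest of all arrays, and the third angiogenic array lay with the islet tumours. Metastasis-like primaries had 1.39-fold more than islet tumours (0.47 ± 0.13, adjusted p = 0.00927), a rise that held under every alternative run, with overlap at a single array, II-6413-MLP. Metastases had 1.40-fold less than metastasis-like primaries, without overlap (-0.49 ± 0.15, adjusted p = 0.0318, 23.2% of all genes without overlap). This fall ended when any of 6 arrays was left out: I-9812-MLP (0.0568), III-8016-MLP (0.0587), III-8023-MLP (0.0649), I-9820-Met (0.14), I-9821-Met (0.0566) or I-9822-Met (0.085).

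Between angiogenic islets and islet tumours Pmaip1 fell 1.42-fold (-0.50 ± 0.15, adjusted p = 0.0386), with overlap. The call ended without AngiogenicI-93 (0.273), Angiogenic2006 (0.184), II-649-tumor (0.0771), II-6415-tumor (0.075) or III-8024-tumor (0.0712), and in a fit of the 8 compared arrays (0.152). With the lymphocyte marker mean as a covariate the difference was -0.11 ± 0.16 (adjusted p = 0.871). The difference of angiogenic from hyperplastic islets, 0.31 ± 0.17 (adjusted p = 0.46), passed without Angiogenic2007 (0.0301).

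Bad, a BH3-only protein that couples growth factor and glucose signals to survival in beta cells, set the metastases apart. Its level was 7.67, 7.75 and 7.59 in normal islets, 7.51, 7.82 and 7.65 in hyperplastic islets and 7.49, 7.62 and 7.32 in angiogenic islets. It was 7.72, 7.87, 7.70, 7.57 and 7.74 in islet tumours, 7.78, 7.73, 7.71, 7.68 and 7.74 in metastasis-like primaries and 7.40, 7.38 and 7.28 in metastases. All 3 metastases lay below all 10 primary tumours (23.2% of all genes had no overlap with metastasis-like primaries and 37.3% none with islet tumours), and only Angiogenic2007 came as low among the islets. Metastases had 1.30-fold less than metastasis-like primaries (-0.37 ± 0.08, adjusted p = 0.0031) and 1.29-fold less than islet tumours (-0.37 ± 0.08, adjusted p = 0.00122), under every alternative run. Between metastasis-like primaries and islet tumours the difference was 0.01, with an interval of -0.14 to 0.16. Islet tumours exceeded angiogenic islets by 0.24 ± 0.08 (adjusted p = 0.0653), which passed with quantile normalization (0.0248), with median centring (0.0249) and without Angiogenic2006 (0.048) or III-8017-tumor (0.0343). The hepatocyte markers given for Bcl2l11 differ over the same arrays, and their part in the low Bad level was not tested.

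Bid links death receptors to the mitochondrial pathway through cleavage by caspase-8. Its level ranged from 6.60 (Angiogenic2007) to 7.22 (I-9812-MLP), its group means lay between 6.88 ± 0.08 in hyperplastic islets and 7.08 ± 0.09 in metastases, and it was called in none of the 7 comparisons. The 95% interval was widest, and equally so, for hyperplastic against normal islets (-0.40 to 0.10 log2) and angiogenic against hyperplastic islets (-0.18 to 0.31).

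Within the islet groups the arrays differed in other cell types. Angiogenic2007, with a lymphocyte marker mean of 6.29 against 8.45 and 7.91 in the other angiogenic arrays, had the lowest angiogenic level of Bcl2 (7.71), Mcl1 (10.19), Bid (6.60), Pmaip1 (6.69), Bad (7.32) and, narrowly, Bak1 (7.58). The same array had the highest hepatocyte marker mean of the islets (9.04). In hyperplastic islets Bcl2, Bid and Pmaip1 declined in the order of the lymphocyte marker mean, from HyperplasticI-93 (7.91) through Hyperplastic2006 (7.36) to Hyperplastic2007 (6.80), while Mcl1 did not (10.33, 9.94 and 10.24). In islet tumours against angiogenic islets 6 of the 11 lymphocyte markers fell (median -0.96). Fibroblast markers (11 of 12, median -1.35), hepatocyte markers (12 of 15, median -1.22), endothelial markers (9 of 13, median -0.57) and markers of other islet endocrine cells (5 of 7, median -2.05) fell too, and their part in the members' differences was not tested. With the lymphocyte mean as a covariate, a setting added after seeing the data, 0 of 9 members and 356 genes were called at that step in place of 2 and 1903. At the other 6 comparisons the number of members called was the same with and without it.

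**Figure D4:**
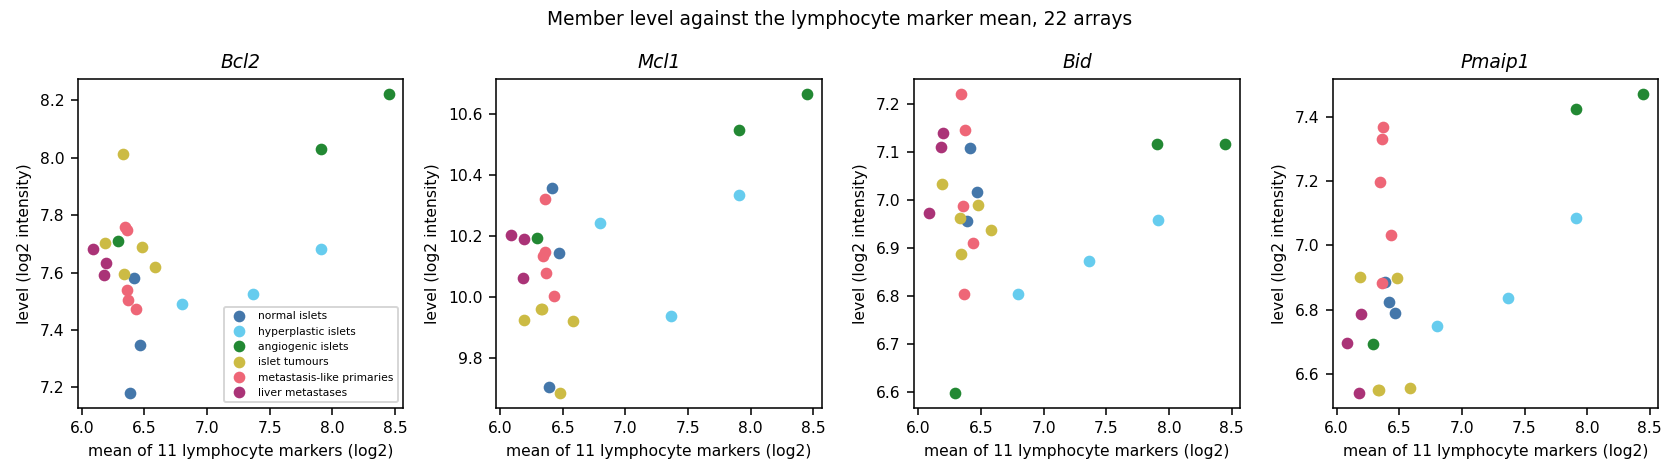
Level of Bcl2, Mcl1, Bid and Pmaip1 (vertical axes, log2 intensity) against the mean of 11 lymphocyte markers (horizontal axes, log2 intensity) on the 22 arrays, coloured by tissue label. AngiogenicI-93 (8.45) and Angiogenic2006 (7.91) lie at the right with high Bcl2, Mcl1 and Pmaip1, HyperplasticI-93 (7.91) lies as far right as the latter with lower levels (Bcl2 7.68, Mcl1 10.33, Pmaip1 7.08), and Angiogenic2007 (6.29) lies at the left.

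The rest of the apoptosis pathway was followed in 6 lists of neighbours of the family. At the first step, from normal to hyperplastic islets, 8.64% of all genes were called, and 2 of 6 inhibitor of apoptosis genes changed. Birc5 (survivin), which also serves the mitotic spindle, rose by 1.29 ± 0.17 (adjusted p = 2.7e-05), and Naip2, a sensor of the inflammasome, fell by 1.02 ± 0.13 (adjusted p = 1.68e-05). Of 14 apoptosome and caspase genes 2 rose, the initiator caspase Casp2 (0.87 ± 0.16) and Apaf1 (0.51 ± 0.13), the scaffold on which cytochrome c activates caspase-9. Bcl2l2 (Bcl-w), 1 of 3 other anti-apoptotic relatives measured, fell by 0.43 ± 0.12, and the hypoxia gene Bnip3 was the 1 of 10 other effector-like and BH3-like relatives that fell (-0.87 ± 0.23). Of 16 regulators of BH3-only genes, E2f1 rose (0.56) and the stress gene Chac1 fell (-0.66 ± 0.20, adjusted p = 0.0456). Of 21 genes that control Bcl2 proteins, the 14-3-3 gene Ywhab rose (0.24 ± 0.08, adjusted p = 0.0499). The medians of these 6 lists lay between -0.07 and 0.08, against -0.01 over all genes. From hyperplastic to angiogenic islets 0 genes of the 6 lists were called, against 2.53% of all genes.

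From angiogenic islets to islet tumours, where 9.54% of all genes were called, 4 of the 6 lists had calls. The inhibitor Birc3 (cIAP2) fell by 0.95 ± 0.15 (adjusted p = 0.000316), 1 of 6 in its list. Cflar (-0.55 ± 0.12), which blocks caspase-8, and Casp8 itself (-0.59 ± 0.15) fell, 2 of 14. Bcl2a1c, a relative expressed in blood cells that shares close copies with other Bcl2a1 genes and is therefore uncertain, fell by 0.51 ± 0.12, 1 of 3. Among the regulators, the stress genes Ddit3 (Chop, 0.45 ± 0.12) and Trib3 (0.61 ± 0.19) rose, 2 of 16. The other effector-like relatives and the genes that control Bcl2 proteins had 0 calls, and list medians ran from -0.09 to 0.08, against 0.05 over all genes. The lymphocyte, fibroblast, hepatocyte, endothelial and other islet endocrine markers that fell at this step, given above, accompany these genes as well, and their part was not tested.

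From islet tumours to metastasis-like primaries, 26.5% of all genes changed, and the regulators moved both ways (3 of 16 higher, 3 lower). Foxo1, a Foxo factor of the insulin pathway, fell by 1.09 ± 0.12 (adjusted p = 3.19e-07). It stood at 9.67 ± 0.12 in islet tumours (SD, n = 5), 8.58 ± 0.30 in metastasis-like primaries (n = 5) and 8.32 ± 0.20 in metastases (n = 3), and at 9.64 to 9.87 on average in the islets. The Bcl2l11 levels of these groups are given above, and the part of Foxo1 in them was not tested. Mycn rose by 0.88 ± 0.12, Trib3 fell by 0.53 ± 0.16 and E2f2 rose by 0.28 ± 0.10. Of 21 genes that control Bcl2 proteins 7 rose and 3 fell. The stress kinase gene Mapk8 (Jnk1), whose product phosphorylates Bim and Bcl2, rose by 0.79 ± 0.09 (adjusted p = 5.2e-07), the co-chaperone Bag3 by 1.06 ± 0.16 and the 14-3-3 gene Ywhaz by 0.35 ± 0.06, and Fbxw7, which targets Mcl1 protein for breakdown, fell by 0.50 ± 0.10.

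In the same comparison 3 of 14 apoptosome and caspase genes fell and 1 rose. The nuclease Dffb fell by 0.60 ± 0.08 (adjusted p = 6.71e-06), Casp9 by 0.27 ± 0.06 and Casp8 by 0.51 ± 0.13, and Dffa, the inhibitor of that nuclease, rose by 0.19 ± 0.06. Of 6 inhibitors Naip2 fell (-0.74 ± 0.10). Among 10 other relatives Bnip3l (0.45 ± 0.09), Bnip3 (0.54 ± 0.18) and the BH3-only gene Bmf (0.22 ± 0.07) rose and Bik fell (-0.30 ± 0.11), while 0 of 3 anti-apoptotic relatives were called. List medians ran from -0.09 to 0.07, against -0.02 over all genes. All 9 beta cell markers (median -1.68) and 11 of 13 endothelial markers (median -0.82) fell between these groups, and their part in the members' differences was not tested.

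From metastasis-like primaries to liver metastases, 15.7% of all genes were called. The 2 genes of the apoptosome list that changed encode mitochondrial proteins. Cycs, which encodes cytochrome c, rose by 0.78 ± 0.09 (adjusted p = 2.61e-06), and Aifm1, a mitochondrial flavoprotein, by 0.57 ± 0.07 (adjusted p = 1.22e-05), 2 of 14 with 0 lower. Of 21 genes that control Bcl2 proteins 5 rose and 0 fell, among them Mtch2, the membrane receptor of truncated Bid (0.40 ± 0.09), the channel genes Vdac1 (0.56 ± 0.14) and Vdac3 (0.34 ± 0.09), and Fbxw7 (0.35 ± 0.11). Birc5 (0.52 ± 0.15) and Xiap (0.29 ± 0.09) rose, 2 of 6, and E2f3 (0.42 ± 0.11) rose, 1 of 16. Bmf (-0.32 ± 0.08) and Bnip3l (-0.33 ± 0.10) fell, 2 of 10, and 0 of 3 anti-apoptotic relatives were called. List medians ran from -0.13 to 0.17, against -0.01 over all genes. Cycs averaged 9.43 to 9.86 in the 5 other labels and 10.51 ± 0.10 in metastases (n = 3). The 14 of 15 hepatocyte markers that rose at this step, with the 6 of 11 acinar markers (median -1.82) and 8 of 14 macrophage markers (median -0.63) that fell, accompany all of these values, and their part was not tested.

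**Figure D5:**
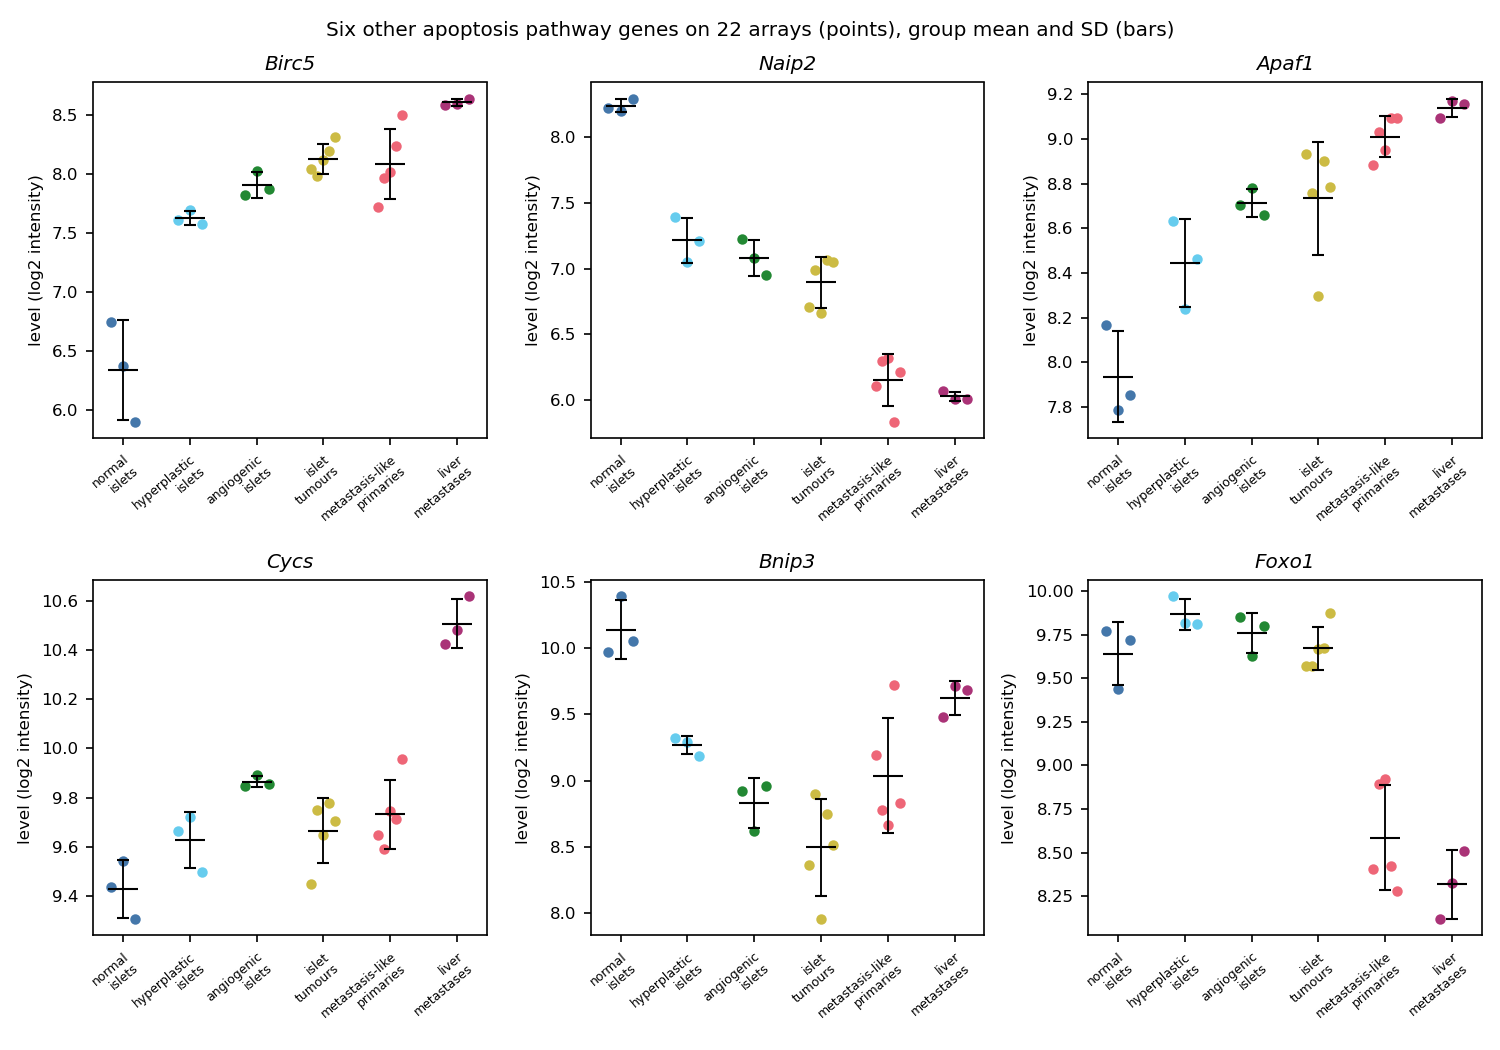
Level of 6 other apoptosis pathway genes (log2 intensity, vertical axes of different span) on the 22 arrays by tissue label, with points for arrays and bars for the group mean and SD. Birc5 averages 6.34 in normal islets and 8.60 in liver metastases, Naip2 8.24 and 6.03, and Foxo1 9.67 in islet tumours and 8.58 in metastasis-like primaries.

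Across the primary course, from normal islets to islet tumours, 29% of all genes were called. Birc5 rose by 1.79 ± 0.15 (adjusted p = 1.89e-08) and Naip2 fell by 1.34 ± 0.11 (adjusted p = 1.83e-08). Xiap was higher (0.37 ± 0.09) and Birc3 lower (-0.74 ± 0.15), so that 4 of 6 inhibitors changed, 2 in each direction. Apaf1 (0.80 ± 0.12), Casp2 (0.80 ± 0.14) and 1 other gene rose while Cflar (-0.62 ± 0.12), Casp6 (-0.64 ± 0.15) and 2 others fell, 7 of 14 in all. Bnip3 fell by 1.64 ± 0.20 (adjusted p = 2.08e-06) with Bnip3l (-0.46 ± 0.10) and Bcl2l14 (-0.30 ± 0.11), 3 of 10, and Bcl2l2 fell by 0.58 ± 0.11, 1 of 3. Regulators had 5 higher and 3 lower of 16, led by the stress factor Atf4 (-0.84 ± 0.10, adjusted p = 1.52e-06) and E2f3 (0.80 ± 0.11). Genes that control Bcl2 proteins had 4 higher and 2 lower of 21, led by Dynll2, a dynein light chain that binds Bmf (-0.67 ± 0.11). These list medians ran from -0.14 to 0.08, against -0.01 over all genes. All 27 cell cycle genes rose (median 2.11) and 14 of 16 immediate-early and heat shock genes fell (median -1.41) between these labels. Markers of other islet endocrine cells (6 of 7, median -3.28) and of beta cells (5 of 9, median -0.72) fell, and those of macrophages (9 of 14, median 0.99) and fibroblasts (7 of 12, median 0.77) rose. For all of these lists, their part in the members' differences was not tested.

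Liver metastases against islet tumours had 9 genes that control Bcl2 proteins higher and 1 lower of 21 (median 0.27, against -0.03 over all genes), led by Ywhaz (0.57 ± 0.07), Mapk8 (0.72 ± 0.10) and Vdac3 (0.65 ± 0.09). The apoptosome and caspase list split into 5 higher and 3 lower of 14, with Cycs (0.84 ± 0.09, adjusted p = 2.56e-07) and Aifm1 (0.58 ± 0.07) higher and Dffb (-0.58 ± 0.09) and Casp9 (-0.38 ± 0.07) lower. Regulators had 3 higher and 5 lower of 16, with Foxo1 at -1.35 ± 0.13 (adjusted p = 9.04e-08), Mycn at 0.87 ± 0.14 and E2f3 at 0.63 ± 0.11. Of 6 inhibitors Xiap (0.41 ± 0.09) and Birc5 (0.48 ± 0.15) were higher and Naip2 lower (-0.87 ± 0.11). Among the other relatives Bnip3 (1.13 ± 0.20) and Bcl2l13 (0.27 ± 0.10) were higher and Bcl2l12 lower (-0.25 ± 0.07), 3 of 10, and 0 of 3 anti-apoptotic relatives were called. All genes had 36.6% called in this comparison. Besides the 15 hepatocyte markers that rose, 11 of 11 acinar (median -2.05), 8 of 9 beta cell (median -1.39), 10 of 13 endothelial (median -0.75) and 9 of 14 macrophage markers (median -0.71) fell, with 2 macrophage markers higher. Of 7 markers of other islet endocrine cells 4 fell and 1 rose (median -1.33). For all of these lists, their part in these values and in those of the members was not tested.

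Genes whose levels ran closest to those of a member over the 22 arrays were few at a Pearson r of 0.9 or more. For Bcl2l11 they were Prpf4 (r = 0.935) and Iqgap2 (r = 0.907), and for Mcl1 it was L3mbtl3 (r = 0.911). The arrays share their tissue labels, so these values describe a common pattern over the 6 groups. For the other 7 measured members the closest gene had an r below 0.9, the highest being Ralgds with Bcl2l1 (r = 0.894).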

How the data were processed

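Total RNA was TRIzol-purified and labelled by the Affymetrix whole-transcript sense protocol, per the labels' protocols. The authors processed the scans with aroma.affymetrix, per the series text. The sources used here do not give the background correction, the normalization, the summarization or the chip definition. The values deposited by the authors were taken as log2 intensities, as their range shows. Of 35511 probe sets, 21789 with a single symbol in the platform annotation were kept, 1621 with several symbols and 12101 not listed were left out, and the brightest probe set was taken for 999 genes with more than 1, which left 19938 genes. No filter on dim genes was set, and 0 columns were without a sample. Arrays give no read depth, and their number limits the precision.

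All 22 arrays were fitted with limma 3.58.1 (R 4.3.3), 1 mean per group. The 7 comparisons used limma's moderated two-sided test and the 6 groups its moderated F test, with Benjamini-Hochberg adjustment over all genes and calls at an adjusted p below 0.05. The fit was tested on simulated data. Errors of differences are standard errors and errors of levels SDs. Folds are 2 to the power of the log2 difference.

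All members were named in all comparisons, up to 4 called genes of each list with the smallest adjusted p, and genes with a Pearson r of at least 0.9 to a member. The members and lists were chosen with earlier results of these data known. Genes of the lists without a usable probe set were not analysed here.

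Alternatives were quantile normalization, median centring, leaving out genes under the 25th percentile of mean level, the mean of probe sets, the compared arrays alone, array weights, the title code as a replicate block, and leaving out each array. The lymphocyte covariate was chosen after seeing the data. Same-code islets pair: their deviations from group means correlated across genes at 0.197 to 0.448 (hyperplastic with normal) and 0.353 to 0.479 (angiogenic with hyperplastic), against -0.393 to -0.0583 for other codes. The replicate block changed no member call among islets. For islet tumours with metastasis-like primaries the measure ran from -0.0874 to 0.206 within a prefix and from -0.278 to 0.167 across prefixes. Those ranges overlap, so whether prefixes pair tumours was not settled. Promoters came from RefSeq, GRCm38.p6.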

Additional observations from a re-analysis of the deposited data

Results flagged for a closer look

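Among the 18 sets of 5 arrays tested (9 members in islet tumours and in metastasis-like primaries), 2 held an array far from the other 4, where chance gives about 1 in 20. The Bcl2 level of II-6415-tumor was 8.01, the highest of the islet tumours, and the next was 7.70, a gap of 0.744 of the group's range. The Mcl1 level of I-9811-tumor was 9.68, the lowest of the islet tumours, and the next was 9.92, a gap of 0.849 of the range. Without II-6415-tumor the call of Bcl2 between islet tumours and normal islets was lost (adjusted p = 0.065).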

How the results depend on the processing

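Among the 18 member differences called, 10 held under every alternative run: Bcl2l11 between hyperplastic and normal islets, islet tumours and normal islets, metastasis-like primaries and islet tumours, and metastases and metastasis-like primaries; Bcl2l1 in 3 comparisons; Bad in 2; and Pmaip1 between the primary tumour classes. No called difference changed sign. Under the alternatives, tests of called differences kept the call 248 times and lost it 38 times, and the causes were not tested. Each measured member had 1 probe set, so the mean of probe sets, counted here, left the members' own values unchanged. The number of members called from normal to hyperplastic islets was 1, 2 with array weights (Bak1 added), and 1 to 2 without single arrays. From hyperplastic to angiogenic islets it was 0, 1 with array weights (Bcl2), and 0 to 2 without single arrays. From angiogenic islets to islet tumours it was 2, 1 with the compared arrays alone, 0 with the lymphocyte covariate, and 0 to 3 without single arrays. It was 3 throughout for metastasis-like primaries against islet tumours when single arrays were left out, and 2 to 3, against 4, for metastases against metastasis-like primaries. For islet tumours against normal islets it was 4, 2 with the compared arrays alone, and 2 to 4 without single arrays. For metastases against islet tumours it was 4, and 2 to 4 without single arrays. Over the 6 groups 8 members varied, and 7 to 8 without single arrays.

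With the title code as a replicate block, 1 member was called from normal to hyperplastic islets and 0 from hyperplastic to angiogenic, as without it, with 2112 and 616 genes in place of 1722 and 505. Tumours and metastases of the same prefix correlated at -0.184 to 0.206, a measure that could not show a pairing of the metastases, which all carry prefix I. The replicate block gave 3 members for metastasis-like primaries against islet tumours and 4 for metastases against islet tumours. For metastases against metastasis-like primaries it gave 3, losing Bbc3 (-0.39 ± 0.13, adjusted p = 0.0605). No block could be set between islets and tumours, which share no code.

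Counts over all genes moved by more than 1.5 times in 4 comparisons. From hyperplastic to angiogenic islets 505 became 930 with array weights and 275, 316, 284 and 869 without Hyperplastic2006, Hyperplastic2007, Angiogenic2006 and Angiogenic2007. From angiogenic islets to islet tumours 1903 became 768 with the compared arrays alone, 356 with the lymphocyte covariate, and 732 and 1025 without AngiogenicI-93 and Angiogenic2006. From normal to hyperplastic islets 1722 became 1012 with the lymphocyte covariate. For metastases against metastasis-like primaries 3126 became 5377 with array weights and 1950 and 1988 without I-9821-Met and I-9822-Met. Median centring shifted differences by at most 0.05 log2. Signal over background was not given, so how dim a member lay was not tested beyond the filter on dim genes.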
